A study of Homo sapiens with 12 samples.

Results

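The TGF-beta genes described here are 10 genes of ligand supply, reception and latency, taken by symbol from the 57879 gene identifiers of each file. They are the ligand genes TGFB1, TGFB2 and INHBA, the receptor genes TGFBR1 and TGFBR2, the decoy receptor gene BAMBI, the latency protein genes LTBP1, LTBP2 and LTBP3, and PMEPA1, which encodes a membrane protein that binds SMADs. The files list the ligand genes as ENSG00000105329, ENSG00000092969 and ENSG00000122641, TGFBR1 and TGFBR2 as ENSG00000106799 and ENSG00000163513, and BAMBI as ENSG00000095739. LTBP1, LTBP2 and LTBP3 are ENSG00000049323, ENSG00000119681 and ENSG00000168056, and PMEPA1 is ENSG00000124225. All 10 were found in the files, and 9 passed the filter on low values. INHBA did not and was given no test. RNA was sequenced from A549, a human lung adenocarcinoma cell line, made into 4 stable lentiviral lines. The vector line (labelled wild type) received the empty expression vector, and the TIF1γ line received the vector expressing TIF1γ (encoded by TRIM33). The sh-NC line (labelled wild type) received the empty shRNA vector, and the sh-TAF15 line received the vector with a short hairpin RNA against TAF15. All lines were infected A549 cells grown in serum, and no group received added TGF-beta per the labels. Of the 12 labelled samples 8 had values: 3 of the vector line, 2 each of the TIF1γ and sh-TAF15 lines and 1 of the sh-NC line. The other 4 are not analysed here. The labels call the replicates biological. They do not say whether the replicates of a line came from separate infections, so p-values measure the spread between these libraries, which may be technical.

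TGF-beta is secreted as a latent complex. The mature dimer stays bound to its propeptide, and a latent TGF-beta binding protein ties that complex to the extracellular matrix until integrins, proteases or thrombospondin release it. The free ligand is bound by the type II receptor TGFBR2, which phosphorylates the type I receptor TGFBR1. TGFBR1 in turn phosphorylates SMAD2 and SMAD3, which join SMAD4 to regulate transcription. TIF1γ is a ubiquitin ligase that acts on SMAD4 and can also bind phosphorylated SMAD2 and SMAD3. BAMBI resembles a type I receptor but lacks the kinase domain and blocks signalling, and PMEPA1 is itself induced by TGF-beta and limits access of SMAD2 and SMAD3 to the receptor. In lung adenocarcinoma cells such as A549 the pathway is known for driving the epithelial-mesenchymal transition.

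The clearest pattern among these genes set the 2 shRNA lines against the other 2 lines, a contrast in which 41.6% of all genes passed the threshold. TGFB2, TGFBR2 and LTBP2 were higher in the sh-NC line (1 library) than in the vector line, and BAMBI and LTBP1 were lower. Of all genes 11% passed there, and TGFB2 and TGFBR2 no longer did once a trend with GC content, described below, was removed. LTBP2 and LTBP1 were kept by the filter on low values only through the lines in which they were high. In the same fit none of the 9 tested genes passed the threshold for TIF1γ against vector or for sh-TAF15 against sh-NC. Of all genes 0.0216% and 0.0575% did. The threshold throughout was an adjusted p under 0.05 in limma, with Benjamini-Hochberg adjustment over 13907 genes. Fold changes are on the log2(FPKM + 1) scale of scaled values, which understates changes of weakly expressed genes. FPKM is fragments per kilobase of transcript, scaled to the sequencing depth, so it allows levels of different genes to be set side by side.

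The promoter sequences of the 5 genes that passed in sh-NC against vector are shown because these genes differed between the control lines, 3 upward and 2 downward. Each is the 250 bases before the first start that RefSeq lists (GRCh38.p14), 5′ to 3′ on the gene's strand. Capitals mark CAGAC, the core of the element that SMAD3 and SMAD4 bind, or GTCTG, the same element on the other strand. The windows are chr1:218345086-218345335 on the plus strand for TGFB2, chr3:30606106-30606355 on the plus strand for TGFBR2, and chr10:28677271-28677520 on the plus strand for BAMBI. They are chr2:32946703-32946952 on the plus strand for LTBP1 and chr14:74612238-74612487 on the minus strand for LTBP2. TGFBR2 has 2 listed starts and LTBP1 has 3, and the other 3 genes have 1 each.
TGFB2: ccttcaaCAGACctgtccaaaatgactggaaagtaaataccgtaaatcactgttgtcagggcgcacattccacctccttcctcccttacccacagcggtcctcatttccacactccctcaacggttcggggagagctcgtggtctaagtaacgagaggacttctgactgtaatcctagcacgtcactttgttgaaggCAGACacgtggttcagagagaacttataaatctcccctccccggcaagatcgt
TGFBR2: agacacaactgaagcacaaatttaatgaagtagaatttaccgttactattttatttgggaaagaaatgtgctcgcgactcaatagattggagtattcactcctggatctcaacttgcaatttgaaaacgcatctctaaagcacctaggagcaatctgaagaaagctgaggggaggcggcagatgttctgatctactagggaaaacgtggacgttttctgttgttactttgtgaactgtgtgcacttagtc
BAMBI: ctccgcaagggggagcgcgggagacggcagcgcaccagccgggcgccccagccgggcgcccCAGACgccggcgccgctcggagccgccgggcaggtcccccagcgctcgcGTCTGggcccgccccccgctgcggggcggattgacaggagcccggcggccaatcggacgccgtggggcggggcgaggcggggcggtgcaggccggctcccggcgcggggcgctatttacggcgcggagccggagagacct
LTBP1: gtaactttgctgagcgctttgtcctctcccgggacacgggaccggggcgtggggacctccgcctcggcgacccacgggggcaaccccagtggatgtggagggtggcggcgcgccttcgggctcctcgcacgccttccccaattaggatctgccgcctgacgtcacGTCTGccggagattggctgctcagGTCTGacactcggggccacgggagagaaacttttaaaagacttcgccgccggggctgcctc
LTBP2: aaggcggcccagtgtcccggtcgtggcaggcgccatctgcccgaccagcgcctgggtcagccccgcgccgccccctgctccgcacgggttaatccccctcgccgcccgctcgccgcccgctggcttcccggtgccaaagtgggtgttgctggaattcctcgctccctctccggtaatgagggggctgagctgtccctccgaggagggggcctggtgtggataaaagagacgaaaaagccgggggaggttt

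CAGAC was found 2 times each in the windows of TGFB2, BAMBI and LTBP1, and was not matched in those of TGFBR2 and LTBP2. Among all 10 genes it was also matched in TGFBR1, a share near the 37.8% of 27305 promoters of the same length that hold it. Whether the element goes with the direction of change was not tested. The GC-box letters GGGCGG were matched in the windows of TGFB1 (6 times), BAMBI (4), LTBP2 (3) and LTBP3 (1), against 42.3% of all promoters. TATAAA was matched 29 bases before the start of TGFB2 (position -29) and at -11 in INHBA, against 11.1% of all promoters. TGANTCA, the letters of the AP-1 element, was matched in none of the 10 windows, against 6.6% of all promoters. Both strands were searched, and matches to different motifs were counted separately, so they may share bases. The 5 windows differ in base composition, from 40.8% GC in TGFBR2 to 81.2% in BAMBI, against a median of 58.0% over all promoters. The files use GRCh37, and the windows serve for sequence only.

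Depth was similar across the libraries. From 12132 to 12622 genes reached 1 FPKM in a library. The steps between low FPKM values put the depth at 14.3 to 18.7 (in units of 1e+06 fragments) per library. TRIM33 was at 8.03 and 6.14 FPKM in the 2 TIF1γ libraries against 1.27 to 2.23 in the vector libraries, a log2 fold change of 1.46 (SE 0.27, limma adjusted p 0.13), which matched the labels in direction. No identifier of the files was matched to the symbol TAF15, so the sh-TAF15 label was not checked. The epithelial keratin KRT7 was at 1516 to 3746 FPKM in every library. Of the leukocyte markers, PTPRC and CD3E were at or near 0 in all 8, CD14 was at 11.7 to 35 FPKM in the vector and TIF1γ libraries and 4.30 to 10.1 in the shRNA libraries, and ITGAM at 0.111 to 0.859 and 1.14 to 2.42. KRT8 and KRT18 were listed at 0 in both TIF1γ libraries and at 1129 FPKM or more in the other 6. CDKN2A, a gene known to be deleted in A549, was at 1.9 FPKM in sh-TAF15 replicate 3 and at 0 to 0.0611 in the other 7. The main comparisons that use this library are therefore also given without it.

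**Figure D1:**
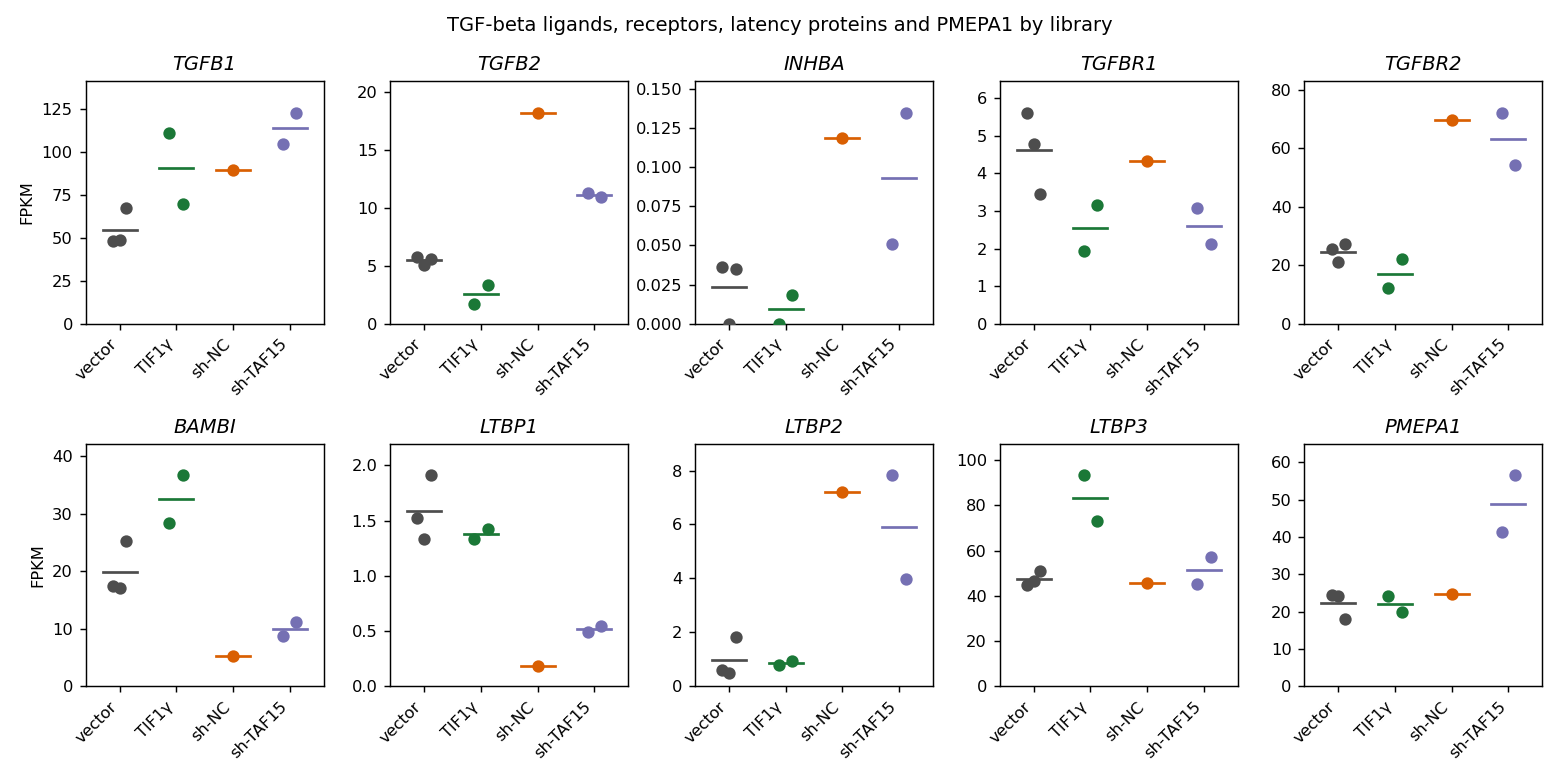
FPKM of the 10 TGF-beta genes in each library, 1 panel per gene with its own axis from 0; points are libraries and bars are group means, with 1 colour per line. TGFB2, TGFBR2 and LTBP2 are higher, and BAMBI and LTBP1 lower, in all 3 shRNA libraries than in the other 5, while INHBA stays at 0.135 FPKM or below.

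TGFB1, the most abundant of the 3 ligand genes, was at 48.3, 48.7 and 67.5 FPKM in the vector libraries, 111 and 69.9 in the TIF1γ libraries, 89.5 in sh-NC, and 105 and 123 in the sh-TAF15 libraries. The vector libraries held the 3 lowest values, and TIF1γ replicate 3 lay close above the highest of them. The group means ran from 54.9 ± 11 (SD, n = 3) in vector through 89.5 in sh-NC and 90.3 ± 28.8 (SD, n = 2) in TIF1γ to 114 ± 13.2 (SD, n = 2) in sh-TAF15. The sh-NC value lay between the TIF1γ values, so these neighbours did not separate. TGFB1 passed the threshold in none of the contrasts. Its exons overlap those of HNRNPUL1 on the other strand (112 to 217 FPKM), and whether the authors counted by strand is not given in the sources used here, so part of the TGFB1 signal may not be its own. Exons of TGFB2 overlap TGFB2-OT1 on the same strand. Those of PMEPA1 and LTBP1 overlap NKILA and ENSG00000285577 on the other strand. No values of these overlapping genes are listed, so their part in the signal was not tested.

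TGFB2, the ligand that needs a coreceptor for efficient binding to TGFBR2, was at 5.78, 5.09 and 5.56 FPKM in vector, 1.68 and 3.37 in TIF1γ, 18.2 in sh-NC, and 11.3 and 10.9 in sh-TAF15. The groups did not overlap: TIF1γ was lowest, vector next, sh-TAF15 above it and sh-NC highest. The sh-NC library was 3.31 times and the sh-TAF15 mean 2.03 times the vector mean. INHBA, the gene of the inhibin beta A chain that forms activin A, was at 0.0360, 0 and 0.0347 FPKM in vector, 0 and 0.0183 in TIF1γ, 0.119 in sh-NC, and 0.0512 and 0.135 in sh-TAF15. The sh-NC value corresponds to an estimated 16.2 fragments. At this level no difference between the lines was testable.

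TGFBR2, the type II receptor gene, was at 25.6, 21.1 and 27.1 FPKM in vector, 12.1 and 22.0 in TIF1γ, 69.7 in sh-NC, and 72.1 and 54.2 in sh-TAF15. The 3 shRNA libraries were all at 54.2 or above and the other 5 at 27.1 or below. TIF1γ and vector overlapped, and so did sh-NC and sh-TAF15. TGFBR1, the type I receptor gene, was at 5.62, 4.78 and 3.44 FPKM in vector, 1.94 and 3.15 in TIF1γ, 4.33 in sh-NC, and 3.09 and 2.13 in sh-TAF15. Both TIF1γ values and both sh-TAF15 values lay below every vector value, and sh-NC lay within the vector range. The receptor genes therefore differed in level in every library, with TGFBR2 4.41 to 7.88 times TGFBR1 in the vector and TIF1γ libraries. That ratio was 16.1 in sh-NC and 23.3 and 25.4 in sh-TAF15, above all 5 other libraries.

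BAMBI was at 17.4, 17.1 and 25.3 FPKM in vector, 28.4 and 36.7 in TIF1γ, 5.34 in sh-NC, and 8.77 and 11.1 in sh-TAF15. None of the groups overlapped, and the order was sh-NC, sh-TAF15, vector and TIF1γ from low to high. The ratio of TGFBR2 to BAMBI, the signalling receptor to the decoy, was 1.07 to 1.48 in vector, 0.428 and 0.60 in TIF1γ, 13.1 in sh-NC, and 8.23 and 4.89 in sh-TAF15. BAMBI was thus above TGFBR2 in both TIF1γ libraries and below it in the other 6. These ratios put 2 genes that were each tested in the fit on 1 scale and were not tested themselves.

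LTBP1, LTBP2 and LTBP3 encode large fibrillin-like matrix proteins. LTBP1 and LTBP3 bind the latent TGF-beta complex through its propeptide, and LTBP2 is known not to bind it. LTBP3 was by far the most abundant of the 3, at 44.7, 46.4 and 50.8 FPKM in vector, 93.3 and 73.1 in TIF1γ, 45.8 in sh-NC, and 45.4 and 57.3 in sh-TAF15. Both TIF1γ values were above the other 6 libraries, which overlapped one another. LTBP1 was at 1.52, 1.33 and 1.91 FPKM in vector, 1.33 and 1.42 in TIF1γ, 0.185 in sh-NC, and 0.489 and 0.544 in sh-TAF15. All 3 shRNA libraries were below all 5 others, and vector and TIF1γ overlapped. The sh-NC value corresponds to an estimated 22.2 fragments.

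LTBP2 was at 0.586, 0.476 and 1.81 FPKM in vector, 0.771 and 0.954 in TIF1γ, 7.22 in sh-NC, and 7.82 and 3.97 in sh-TAF15. The shRNA libraries were again all on 1 side of the others, here the high side, and the highest of the other 5 was vector replicate 3. LTBP2 therefore ran opposite to LTBP1. The ratio of LTBP2 to LTBP1 was 0.358 to 0.950 in the vector and TIF1γ libraries, 38.9 in sh-NC, and 16.0 and 7.30 in sh-TAF15. LTBP3 made up 93.2% to 97.8% of the summed FPKM of the 3 genes in the vector and TIF1γ libraries and 84.5% to 92.7% in the shRNA libraries. LTBP2 made up at most 3.33% of that sum in the first 5 libraries and at least 6.42% in the other 3, so the members of this small family differed in which line held more of them.

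PMEPA1 was at 24.5, 24.3 and 17.9 FPKM in vector, 24.1 and 20 in TIF1γ, 24.6 in sh-NC, and 41.3 and 56.5 in sh-TAF15. The 2 sh-TAF15 values were the highest, and the other 6 libraries lay close together, between 17.9 and 24.6. The sh-NC value of 24.6 was only just above the highest vector value of 24.5. PMEPA1 was thus highest in sh-TAF15, but its difference from the single sh-NC library did not pass the threshold described above.

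**Figure D2:**
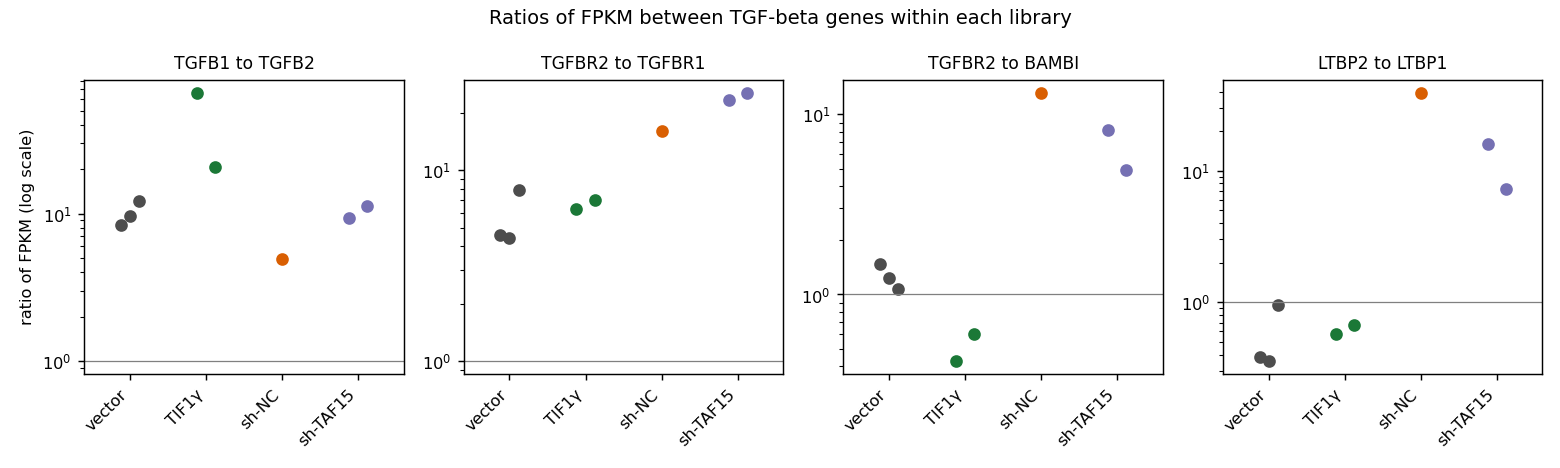
Ratios of FPKM between pairs of TGF-beta genes within each library, on a log axis; each point is 1 library, and the grey line marks a ratio of 1. TGFBR2 to TGFBR1, TGFBR2 to BAMBI and LTBP2 to LTBP1 are higher in all 3 shRNA libraries than in the other 5. TGFB1 to TGFB2 is highest in TIF1γ, at 65.7 and 20.8. These 2 genes differ in transcript GC (58.0% and 39.0%). Genes of like GC had median log2 fold changes of 0.35 and -0.6 in TIF1γ minus vector.

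The first labelled comparison asks what TIF1γ overexpression changed. TGFB2, TGFBR1 and TGFBR2 had lower means and TGFB1, BAMBI and LTBP3 higher means in TIF1γ than in vector, and none passed the threshold. The count was 0 of 9, beside 0.0216% of all genes tested (0.0144% higher and 0.00719% lower). At an unadjusted p under 0.05 it was 5 of 9, beside 19.9% of all genes, namely TGFB2, LTBP3, TGFBR1, TGFB1 and BAMBI. TGFB2 had a log2 fold change of -0.98 (SE 0.29, limma adjusted p 0.2) and LTBP3 of 0.71 (SE 0.22, adjusted p 0.2). TGFBR1 was at -0.73 (SE 0.30, limma adjusted p 0.224), TGFBR2 at -0.63 (SE 0.30, adjusted p 0.253), and TGFB1 and BAMBI both at 0.61 (SE 0.26 and 0.27, adjusted p 0.228 and 0.242). LTBP1, LTBP2 and PMEPA1 were at -0.17, -0.05 and -0.09, each within 1 SE of 0. The deposited values of the 2 groups did not overlap for 5 of the 9 genes (37.6% of all genes). Of these 3 were higher, beside 20.8% of all genes, and 2 lower, beside 16.8%. The median log2 fold change was -0.09 over the 9 and 0.02 over all genes.

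In this comparison fold changes moved with the GC content of the transcript. Over 11720 protein-coding genes the Spearman correlation between fold change and GC percent was 0.797, with a median log2 fold change of -0.6 below 40% GC and 0.49 above 60%. The points share the same 5 libraries, and across the 9 TGF-beta genes the value was 0.883. TGFB2 is at 39.0% GC and LTBP3 at 64.8%, near the ends of the range. Genes within 1 percentage point of GC of TGFB2 had a median of -0.6, those near TGFBR1 (42.2%) of -0.5 and those near LTBP3 of 0.53. With the GC and length trend removed, the log2 fold change was -0.39 for TGFB2, -0.32 for TGFBR1, 0.22 for TGFB1, 0.19 for LTBP3 and 0.52 for BAMBI (limma adjusted p 0.755 to 0.816). BAMBI, at 52.5% GC, thus changed least of the 5 under this correction. Whether the trend arose in the libraries or in the cells was not tested. TGFB2 was at -1.40 without TIF1γ replicate 3 and at -0.57 without TIF1γ replicate 2, so the size of its difference rested on replicate 2. Without that library TGFBR2 was at -0.14, TGFBR1 at -0.42 and TGFB1 at 0.37, and without TIF1γ replicate 3 BAMBI was at 0.34.

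**Figure D3:**
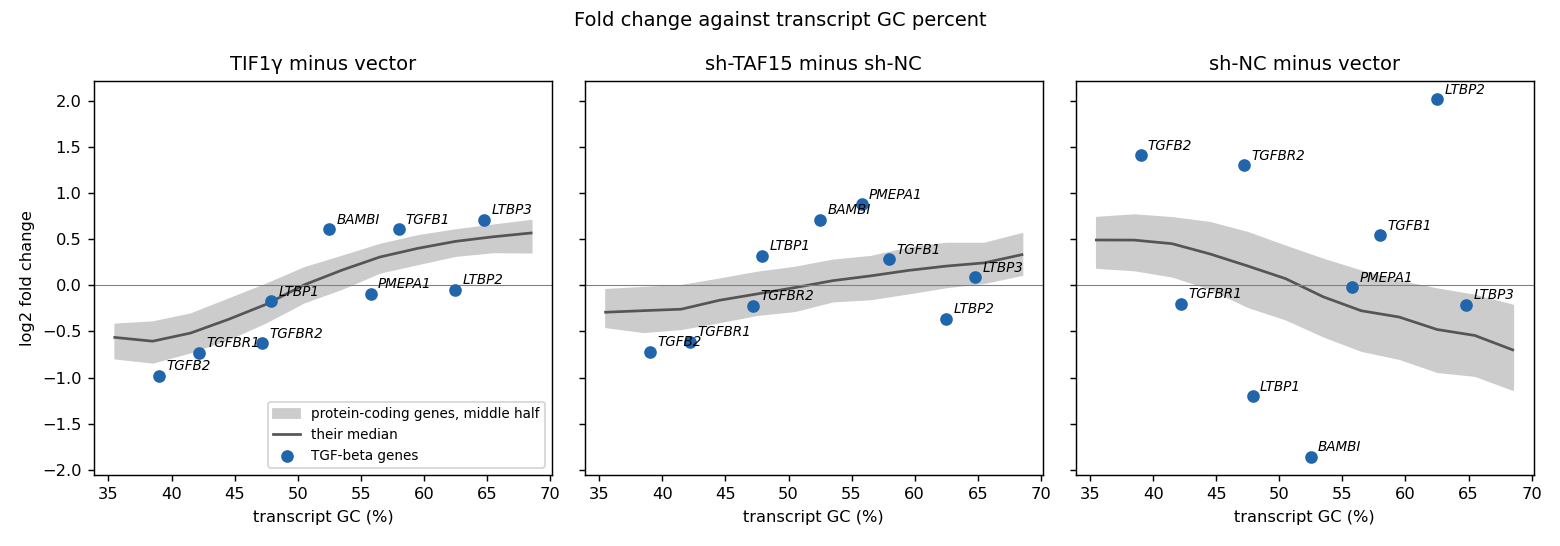
log2 fold change against transcript GC percent in 3 contrasts; the line is the median and the band the middle 50% of protein-coding genes in GC bins, and blue points are the 9 tested TGF-beta genes. In TIF1γ minus vector the band rises, with BAMBI, TGFB1 and LTBP3 above it and TGFB2, TGFBR1, TGFBR2, PMEPA1 and LTBP2 below it. In sh-NC minus vector the band falls, with TGFB2, TGFBR2, TGFB1 and LTBP2 above it and TGFBR1, LTBP1 and BAMBI below it.

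The second labelled comparison asks what TAF15 knockdown changed. PMEPA1 had the lowest p of the 9 genes, at 24.6 FPKM in sh-NC and 41.3 and 56.5 in sh-TAF15, and it did not pass the threshold. The log2 fold change was 0.88 (SE 0.32, unadjusted p 0.0147, limma adjusted p 0.697). Without sh-TAF15 replicate 3, the library with CDKN2A signal, it was 0.69 (adjusted p 1). Of the 9 genes 0 passed, beside 0.0575% of all genes (0.0503% higher and 0.00719% lower), and 1 was under an unadjusted p of 0.05, beside 5.62%. TGFB2 was at -0.72 (SE 0.39, limma adjusted p 0.905), BAMBI at 0.71 (SE 0.37, adjusted p 0.894) and TGFBR1 at -0.61 (SE 0.40, adjusted p 0.952). TGFB1, TGFBR2, LTBP1, LTBP2 and LTBP3 lay between -0.36 and 0.32. The value of LTBP1, a weakly expressed gene, was 1.04 with a pseudocount of 0.1 (SE 0.66, limma adjusted p 0.952), where PMEPA1 was at 0.91. Without sh-TAF15 replicate 3 the values of TGFBR2, LTBP2 and LTBP3 changed sign, from -0.22 to 0.01, from -0.36 to 0.07 and from 0.09 to -0.05. Without it TGFB2 was at -0.67, BAMBI at 0.59, TGFBR1 at -0.40, TGFB1 at 0.19 and LTBP1 at 0.31. The single sh-NC library, assumed to vary like the others, and the sh-TAF15 values did not overlap for 6 of the 9 genes, beside 73% of all genes. Of the 6, 4 were higher (39.3% of all genes) and 2 lower (33.7%).

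The effects of TIF1γ and of sh-TAF15 were set against each other by an interaction term. Of the 9 genes 0 passed (0.0431% of all genes did, 0.0144% upward and 0.0288% downward), and 1 was under an unadjusted p of 0.05 (3.6% of all genes). That gene was PMEPA1, with a difference of -0.97 (SE 0.39, unadjusted p 0.0282, limma adjusted p 1), where TIF1γ gave -0.09 and sh-TAF15 gave 0.88. Without sh-TAF15 replicate 3 it was -0.78 (SE 0.47, limma adjusted p 1). The remaining differences lay between -0.49 for LTBP1 and 0.62 for LTBP3, with SEs of 0.38 to 0.59, so differences of that size were not resolved.

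The control lines were compared next, since both received a construct without an insert against a gene. TGFB2, TGFBR2 and LTBP2 were higher and BAMBI and LTBP1 lower in sh-NC than in vector, 5 of the 9 genes beside 11% of all genes. The 3 higher compare with 3.78% of all genes and the 2 lower with 7.21%. The sh-NC arm is 1 library with no spread of its own, so the standard errors come from the other groups. LTBP2 rose by 2.02 on the log2 scale (SE 0.45, limma adjusted p 0.0112), TGFB2 by 1.41 (SE 0.37, adjusted p 0.0249) and TGFBR2 by 1.30 (SE 0.37, adjusted p 0.0396). BAMBI fell by 1.86 (SE 0.35, limma adjusted p 0.00384) and LTBP1 fell by 1.20 (SE 0.33, adjusted p 0.0346). LTBP2 passed the filter (1 FPKM in 2 libraries) only through the shRNA libraries, and LTBP1 only through the vector and TIF1γ libraries. The filter thus favoured the direction in which each was called. TGFB1 was at 0.54 (adjusted p 0.292), and TGFBR1, LTBP3 and PMEPA1 were at -0.20, -0.21 and -0.02. The same 5 were under an unadjusted p of 0.05, beside 27.9% of all genes. The sh-NC value lay outside the vector range for 7 of the 9 genes, beside 75.2% of all genes, with 5 higher (45.4%) and 2 lower (29.7%). This count used unscaled FPKM. The log2 scale factors were -0.153 to -0.062 in vector and 0.073 in sh-NC, so unscaled values lean towards higher in sh-NC. PMEPA1, among the 5 higher, was at -0.02 after scaling. The median over the 9 genes was -0.02, and 0.01 over all genes.

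GC content also moved with this comparison, in the other direction. The correlation of fold change with GC percent was -0.481 over the 11720 protein-coding genes and -0.067 over the 9, with the 4 libraries shared by all points. Genes with a GC percent like that of LTBP2 (62.5%) had a median of -0.47, where LTBP2 was at 2.02, and genes like BAMBI had a median of -0.05, where BAMBI was at -1.86. For TGFB2 and TGFBR2 the like genes had medians of 0.47 and 0.24, on the same side as the genes themselves. With the trend removed LTBP2 was at 2.29, BAMBI at -1.83 and LTBP1 at -1.28 (limma adjusted p 0.0111, 0.00901 and 0.0253). TGFB2 was then at 0.83 and TGFBR2 at 0.91, and neither passed (limma adjusted p 0.091 and 0.0914), while TGFB1 did, at 0.87 (adjusted p 0.047). LTBP1 and TGFBR2 also lost the call without vector replicate 1 (limma adjusted p 0.07 and 0.0514) and without vector replicate 3 (0.0651 and 0.0618). BAMBI passed in each of these settings.

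The mean of the 2 shRNA group means was also compared with the mean of the vector and TIF1γ group means. The 1 sh-NC library thus had the weight of the 2 sh-TAF15 libraries together. TGFB2, TGFBR2 and LTBP2 were higher and BAMBI, LTBP1 and LTBP3 lower in the shRNA lines, 6 of 9 genes beside 41.6% of all genes (20.4% higher and 21.1% lower). This contrast shares the sh-NC and vector libraries with the last one, so it is no separate support for it. The filter favoured the direction of LTBP2 and LTBP1 here too. LTBP2 was at 1.86 (SE 0.30, limma adjusted p 0.0004), TGFB2 at 1.54 (SE 0.24, adjusted p 0.000354) and TGFBR2 at 1.51 (SE 0.25, adjusted p 0.000496). BAMBI was at -1.81 (SE 0.23, limma adjusted p 6.7e-05) and LTBP1 at -0.95 (SE 0.22, adjusted p 0.00436). Without sh-TAF15 replicate 3 these 5 genes still passed, at 2.08, 1.57, 1.62, -1.87 and -0.96. LTBP3, at -0.53 (SE 0.19, limma adjusted p 0.038), passed only just. It was at -0.59 without that library (adjusted p 0.0501) and at 0.17 with the GC and length trend removed (adjusted p 0.356), where TGFB1, TGFBR1 and PMEPA1 passed at 0.79, -0.58 and 0.64. Before that correction these 3 were at 0.37, -0.14 and 0.47 and did not pass (limma adjusted p 0.173, 0.676 and 0.0715). The shRNA libraries overlapped the others in unscaled FPKM for 3 of the 9 genes, TGFBR1, LTBP3 and TGFB1. They were wholly apart for 6 (36.8% of all genes), 4 of them higher (24.4%) and 2 lower (12.4%). At an unadjusted p under 0.05 the count was 7 of 9, beside 51.4% of all genes.

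**Figure D4:**
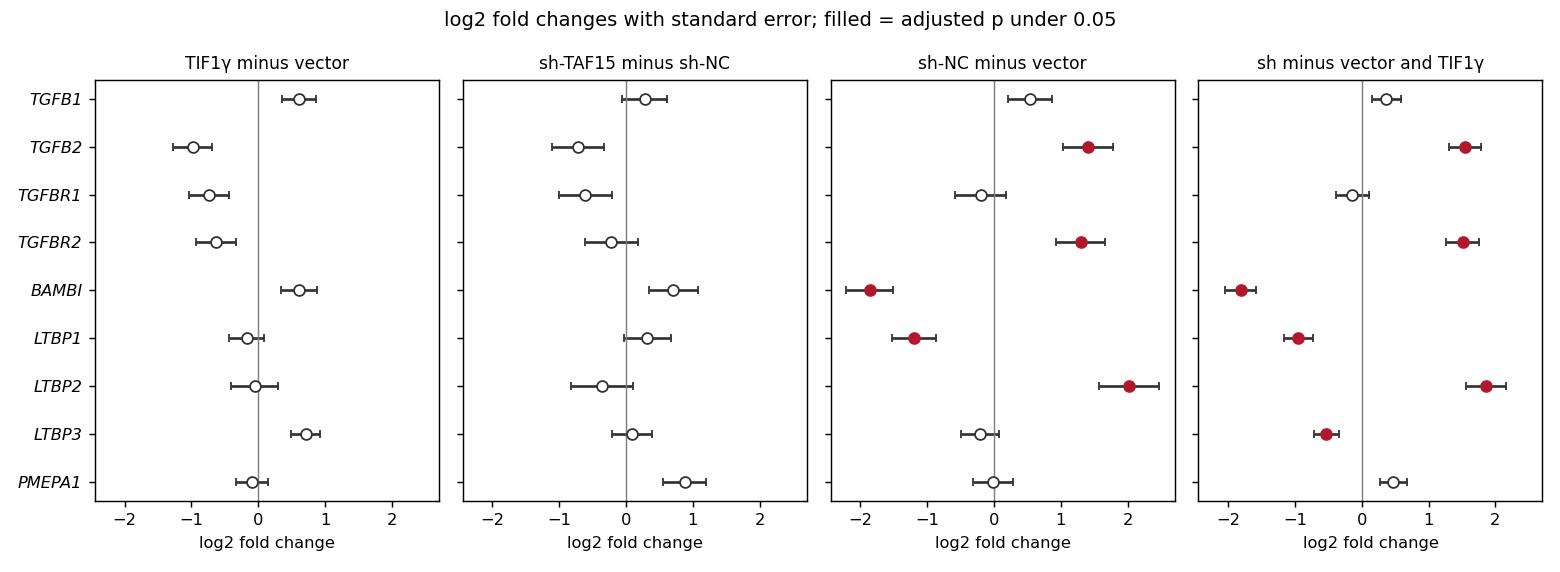
log2 fold change with its standard error for the 9 tested TGF-beta genes in 4 contrasts; filled points have a limma adjusted p under 0.05. No point is filled in TIF1γ minus vector or sh-TAF15 minus sh-NC, 5 are filled in sh-NC minus vector and 6 in the shRNA lines minus the vector and TIF1γ lines.

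The fibroblast collagen markers COL1A1, COL1A2 and COL3A1 were higher in the shRNA libraries than in the others. The fibroblast markers LUM, PDGFRA and PDGFRB overlapped between them. The 7 fibroblast markers summed to 0.403 to 1.65 FPKM in the vector and TIF1γ libraries and to 4.31 to 6.05 in the shRNA libraries, and 5 of the 7 were below 1 FPKM in all 8. COL1A1 and COL1A2 carried most of the shRNA value (2.43 to 3.64 and 1.04 to 1.85), COL3A1 was at 0.391 to 0.461, and DCN was listed at 0 in every library. The 10 A549 and epithelial markers summed to 18766 to 20354 FPKM in vector, 10352 to 13519.8 in TIF1γ (with KRT8 and KRT18 listed at 0), 6225 in sh-NC and 8794 to 10584 in sh-TAF15. AKR1B10 was at 2049.8 to 3129 FPKM in the vector and TIF1γ libraries and at 191 to 467 in the shRNA libraries, and KRT19 was at 26.9 to 61.7 against 0.243 to 0.775. KRT7 overlapped (1764 to 3746 against 1516 to 1922), and so did ALDH1A1, in the other direction (782 to 1354 against 1165 to 1847). The 3 endothelial markers found summed to at most 0.298 FPKM. Of 6 lung lineage markers, 4 (among them NKX2-1 and SFTPA1) were below 1 FPKM in every library, SFTPC reached 1.42, and ABCA3 was at 3.66 to 8.21 in the vector and TIF1γ libraries and 2.70 to 3.52 in the shRNA libraries. The part of these markers in the differences of TGFB2, TGFBR2, LTBP2, BAMBI and LTBP1 was not tested. In bulk RNA, fewer cells of a type and less RNA per cell cannot be told apart, and line, construct system and any batch cannot be told apart here either.

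The wider pathway was followed in 82 further genes, of which 64 were tested. In sh-NC against vector 14 rose and 4 fell (28.1% of the 64, beside 11% of all genes), and in TIF1γ against vector and sh-TAF15 against sh-NC 0 passed. The lists were chosen with earlier results of these data known, so shares over them are no test of the pathway. Of 22 tested targets of TGF-beta and SMAD3, 9 rose and 2 fell, beside 3.78% and 7.21% of all genes. Among those that rose, SNAI2 and ITGB3 were at 0.242 FPKM or below in the vector and TIF1γ libraries. They passed the filter only through the shRNA libraries, where they were high. COL4A1, a basement membrane collagen gene, rose by 2.84 (SE 0.33, limma adjusted p 0.000123), from 2.24 to 3.26 FPKM in vector to 29.5 in sh-NC. IL11, a cytokine gene, rose by 2.77 (SE 0.37, adjusted p 0.000359), from 0.486 to 1.07 to 12.4. CCN2, CCN1, SNAI2, ITGB3, SPHK1 and TPM1 also rose, and the 2 that fell were HMOX1 (-1.54, limma adjusted p 0.00707) and FN1 (-2.10, adjusted p 0.0159), which encode heme oxygenase and fibronectin. Without vector replicate 1 the total was 9 higher and 4 lower, and without sh-TAF15 replicate 3 it was 11 and 5.

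Of the 4 other ligands tested, 2 fell in sh-NC against vector and 0 rose, beside 7.21% and 3.78% of all genes. INHBB, whose product forms activin B, was at 59.2, 61.8 and 54.6 FPKM in vector and 61.7 and 62.6 in TIF1γ, and at 4.01 in sh-NC and 4.63 and 6.06 in sh-TAF15. It fell by 3.73 on the log2 scale (SE 0.28, limma adjusted p 2.68e-06) and did not overlap between the shRNA and other libraries. GDF15, a stress-induced ligand of the family, fell by 1.91 (SE 0.32, adjusted p 0.00179), from 259.7 to 344 FPKM in vector to 88.2 in sh-NC. Its sh-TAF15 values were 164 and 221, and sh-TAF15 minus sh-NC gave 1.04 (limma adjusted p 0.573), and 0.85 without sh-TAF15 replicate 3.

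Of the 8 other receptors and coreceptors, TGFBR3 alone passed in sh-NC against vector, a share near the 11% of all genes in either direction (3.78% higher and 7.21% lower). TGFBR3, or betaglycan, presents TGFB2 to TGFBR2, and it rose by 1.27 (SE 0.34, limma adjusted p 0.0293). It was at 1.14 to 1.65 FPKM in vector, 5.20 in sh-NC, and 3.66 and 3.10 in sh-TAF15. CD109, a coreceptor that limits signalling, was at 0.96 (adjusted p 0.133). Of 13 genes of latency, activation and extracellular control, FBN2 (2.22, limma adjusted p 0.00135) and FSTL1 (1.42, adjusted p 0.035) rose and 0 fell. Of all genes 3.78% were higher and 7.21% lower. FBN2 encodes a fibrillin of the microfibrils on which LTBP proteins sit, and was at 0.350 to 0.451 FPKM in vector against 6.01 in sh-NC. It passed the filter only through the shRNA libraries. Of 17 SMADs and repressors, TGIF2 (1.16, limma adjusted p 0.0426) and SMURF2 (1.29, adjusted p 0.0449) rose and 0 fell, beside the same 3.78% and 7.21%. TGIF2 is a corepressor of SMAD2 and SMAD3, and SMURF2 is a ubiquitin ligase that acts on the receptors.

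**Figure D5:**
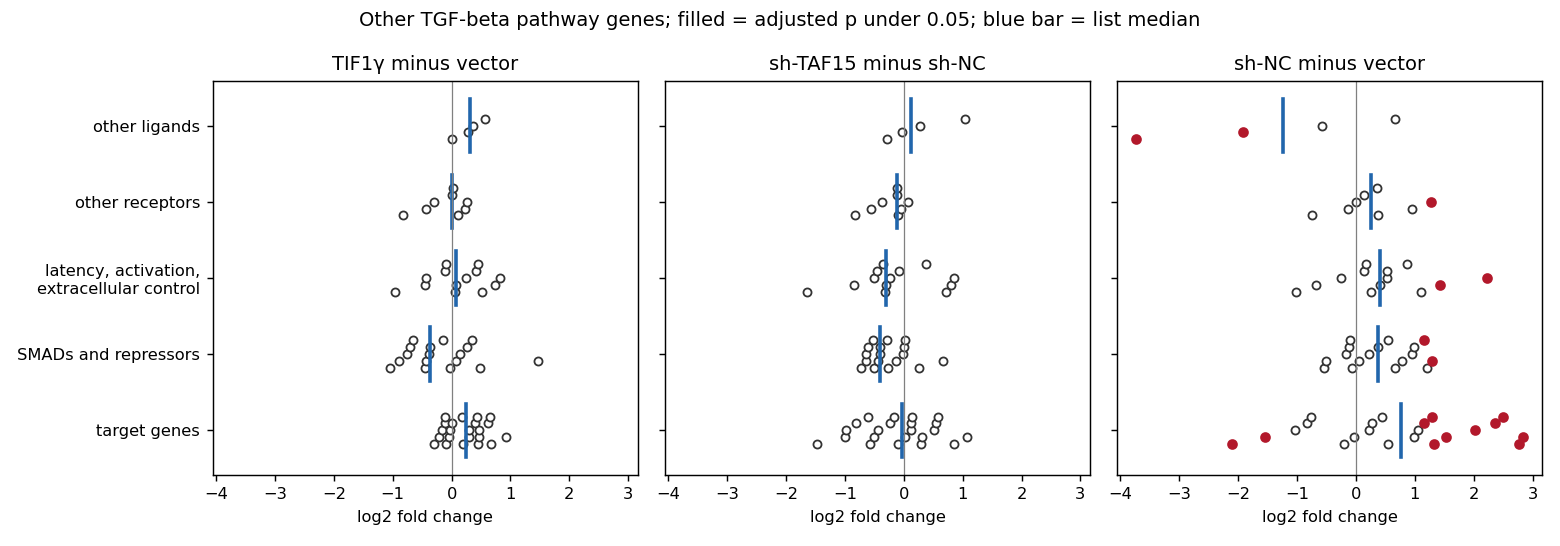
log2 fold changes of 64 tested genes of the TGF-beta pathway in 5 lists and 3 contrasts; each circle is a gene, filled where the limma adjusted p is under 0.05, and blue bars are list medians. In sh-NC minus vector 18 circles are filled, 11 of them among the target genes, and none is filled in the other 2 contrasts.

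In TIF1γ against vector several of the genes with the lowest p-values in their lists lay near the ends of the GC range. LTBP4, the fourth LTBP gene (64.1% GC), was at 0.82 (SE 0.24, limma adjusted p 0.2), and ITGAV, the integrin chain that releases TGF-beta from its latent complex (38.2% GC), at -0.96 (SE 0.34, adjusted p 0.206). The target JUNB was at 0.92 (SE 0.30, limma adjusted p 0.2) and the deubiquitinase gene USP15 at -1.05 (SE 0.35, adjusted p 0.2), at 64.9% and 38.6% GC. The ligand genes GDF15 and GDF11 were at 0.57 and 0.36, the coreceptor genes CD109 and TGFBR3 at -0.82 and -0.43, and the target SPHK1 at 0.61 (limma adjusted p 0.212 to 0.473). The lists' medians ran from -0.37 for SMADs and repressors to 0.32 for other ligands. THBS1, which encodes the activator thrombospondin-1, was at 7.69 FPKM in sh-NC and 1.98 and 1.70 in sh-TAF15. It was at 2.75 to 3.86 in vector and 2.71 and 2.02 in TIF1γ, so the single sh-NC library was the highest. In sh-TAF15 against sh-NC its log2 fold change was -1.64 (SE 0.35, limma adjusted p 0.149). The value was -1.55 without sh-TAF15 replicate 3 (limma adjusted p 0.758). The matricellular gene CCN1 was at -1.0 (limma adjusted p 0.56), the protease gene HTRA1 at 0.85 (0.697), TGIF2 at -0.73 and the inhibitory SMAD6 at 0.67 (both 0.889). These 4 were at -0.92, 0.72, -0.55 and 0.43 without sh-TAF15 replicate 3. For CCN1 too the single sh-NC library was the highest, at 42.3 FPKM. CCN1 was at 22.3 and 20.8 in sh-TAF15, 11.9 to 13.2 in vector, and 14.1 and 16.2 in TIF1γ. SMAD4, the target of TIF1γ, was at 6.88 to 9.82 FPKM in vector, 4.61 and 5.16 in TIF1γ, 18.8 in sh-NC, and 14.4 and 12.4 in sh-TAF15. It passed only in the shRNA lines against the others, at 1.05 (SE 0.22, limma adjusted p 0.00238), and at 1.11 without sh-TAF15 replicate 3 (adjusted p 0.00599).

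The patterns of single genes over the 8 libraries were compared with those of 9898 protein-coding genes by Pearson's r of the log2 values, as a description. TGFBR2 was closest to SMAD2 (0.995) and ACSL4 (0.994), and SMAD2 was at 47.3 FPKM in sh-NC and 47.6 and 35 in sh-TAF15, against 10.5 to 20.7 elsewhere. TGFB2 was closest to KIF13A and RPRD1A (0.995 and 0.994), BAMBI to SRRM3 and CD70 (0.996 and 0.994), and LTBP2 to PTPN1 and CHST15 (0.992 and 0.991). For LTBP1 the closest were RNF43 and RAB40B (0.989 and 0.986) and for LTBP3 they were PROCR and MAFG (0.989 and 0.988). TGFB1 was closest to SEMA6B and HPCAL1 (0.982 and 0.966), TGFBR1 to PUDP and UACA (0.973 and 0.960), and PMEPA1 to LPCAT1 and APOO (0.967 and 0.954). Values above 0.9 were shared with 1095 genes for TGFB2, 852 for BAMBI and 771 for TGFBR2, and with 22 for PMEPA1, 30 for TGFBR1 and 37 for TGFB1. For LTBP1, LTBP3 and LTBP2 the numbers were 354, 342 and 253. All values share the same 8 libraries.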

How the data were processed

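RNA sequencing values of A549 cells came as 1 file per library. The deposited values are FPKM on a linear scale, judged from their range and their steps, and how the authors computed them is not given in the sources used here. The submitters' processing notes list cutadapt 1.9.1, HISAT2 2.0.1, HTSeq 0.6.1 and GRCh37. Of 57879 identifiers, 52324 matched a GENCODE symbol. Genes with at least 1 FPKM in 2 libraries were kept, and 19 genes listed at 0 beside 100 FPKM or more were set aside. Libraries were aligned on the mean of their log2 ratios after trimming both ends, a pseudocount of 1 was added, and limma 3.58.1 in R 4.3.3 (lmFit, eBayes with trend and robust) was fitted to all 4 groups at once, with 4 residual degrees of freedom, prior degrees of freedom of 9.57 and no covariate. Very small variances were offset by limma. The fit was tested on simulated data. Transcript GC percent and length came from GENCODE (GRCh38). Depth was estimated from 347 of 728 weak single-transcript genes whose values were whole multiples of 1 step within 0.02. No library repeated another. The genes and pathway lists were chosen with earlier results of these data known. Named were the 10 genes, TRIM33, SMAD4, the 2 list genes of lowest p per contrast and the 2 genes most alike in pattern; other list genes named were chosen after their values were seen. Some list and marker genes are not reported by name here. Alternatives were another pseudocount, no filter, no scaling, GC and length correction, the replicate number as a block, separate fits and leaving out each library. Counts over the pathway lists without single libraries or with the GC correction were added after seeing the data.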

Additional observations from a re-analysis of the deposited data

How the results depend on the processing

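Across the tested genes and alternatives, 560 single-gene values kept their direction and their side of the threshold, 22 lost a call, 6 gained one and 33 changed sign. The number of genes passing in sh-NC minus vector was 5. It was 2 with no filter, 2 with the replicate block and GC and length trend removed, and 3 to 5 with each library left out in turn (3 without vector replicate 1 and 3 without vector replicate 3). It was 0 under every setting run for TIF1γ, for sh-TAF15 and for the difference between them. The cause of these losses was not tested. No value without sh-NC replicate 2 exists where a contrast needs it. The replicate numbers pair nothing by the labels. Same-numbered vector and TIF1γ libraries deviated from their group means together with r of 0.171 and 0.121. With 2 TIF1γ libraries the deviations of 1 mirror those of the other, so these are not 2 separate observations of pairing. As a block the replicate numbers gave 4 calls in sh-NC minus vector (LTBP1 lost, adjusted p 0.171) and 5 in the shRNA lines against the others (LTBP3 lost, adjusted p 0.175).

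After removal of the trend with GC and length, the values that changed sign were TGFBR2 at 0.0037 and LTBP3 at -0.19 in sh-TAF15 minus sh-NC, PMEPA1 at 0.06 and LTBP3 at 0.36 in sh-NC minus vector, LTBP3 at 0.17 in the shRNA lines against the others, and TGFBR1 at 0.12 in the difference between effects. With the block added to that correction, they were LTBP3 at -0.24, PMEPA1 at 0.13, LTBP3 at 0.41 and at 0.20, and, in the difference, TGFB2 at 0.11, TGFBR1 at 0.18 and LTBP2 at -0.03. With the block alone PMEPA1 was at 0.05 in sh-NC minus vector and BAMBI at 0.05 in the difference, and with no scaling PMEPA1 was at 0.15. With each library left out in turn, the log2 fold changes that changed sign in TIF1γ minus vector ran from -0.24 to 0.27 for LTBP2. The log2 fold changes that changed sign in sh-TAF15 minus sh-NC ran from -0.80 to 0.07 for LTBP2, -0.45 to 0.01 for TGFBR2 and -0.05 to 0.22 for LTBP3. The log2 fold changes that changed sign in sh-NC minus vector ran from -0.14 to 0.05 for PMEPA1. The log2 fold changes that changed sign in the difference between effects ran from -0.68 to 0.15 for TGFB2, -0.37 to 0.17 for BAMBI, -0.43 to 0.19 for TGFBR1, -0.12 to 0.74 for LTBP2 and -0.90 to 0.08 for TGFBR2. The log2 fold changes that changed sign in the shRNA lines against the others ran from -0.30 to 0.02 for TGFBR1.

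Counts over all genes moved more. TIF1γ minus vector had 3 calls, and 44 with the block, 0 with the block and the correction, 7 in the separate fit, 5 with the other pseudocount, 0 with no filter, and 1 to 295 with a library left out, most without vector replicate 3. sh-TAF15 minus sh-NC had 8, and 188 with no filter, 52 with the block, 21 with the other pseudocount, 3 with GC and length removed, 2 with the block added to that, 1 in the separate fit, and 4 to 49 with a library left out. The difference had 6, and 103 with no filter, 30 with the block, 3 with the block and the correction, and 3 to 18 with a library left out. sh-NC minus vector had 1529, and 1000 with the block and 552 with the block and the correction. The shRNA lines against the others had 5782 and, with the last, 2461. With no scaling the split of higher and lower calls moved from 526 and 1003 to 899 and 782 in sh-NC minus vector, and from 2841 and 2941 to 3841 and 2305 in the shRNA lines against the others, and the median log2 fold change over all genes moved from 0.01 to 0.16 in the first and from 0.02 to 0.15 in the second.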

Other observations

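Genes of the pathway lists outside those described above also separated the shRNA lines from the vector and TIF1γ lines in the limma fit, where 21 of the 64 were higher and 10 lower (48.4%, beside 41.6% of all genes), and 20 and 8 without sh-TAF15 replicate 3. They were chosen after their values were seen. SMAD2, which carries the TGF-beta signal, had a log2 fold change of 1.28 (SE 0.24, limma adjusted p 0.00135), and the inhibitory SMAD7 one of 0.70 (SE 0.24, adjusted p 0.0296), with 3.39 to 5.49 FPKM in the vector and TIF1γ libraries and 10.9, 9.73 and 6.98 in the shRNA libraries. SMAD3 did not pass, at 0.36 (limma adjusted p 0.28). FBN1, the gene of fibrillin-1, was higher by 1.03 (SE 0.23, limma adjusted p 0.00337), and passed the filter only through the shRNA libraries. ITGB5, a partner chain of ITGAV, was at -1.19 (SE 0.22, limma adjusted p 0.00113), with 147 to 265 FPKM in the vector and TIF1γ libraries and 102, 108 and 94.5 in the shRNA libraries. The targets ID1 and ID3, better known as targets of BMP signalling, were at -0.80 and -1.20 (limma adjusted p 0.0156 and 0.00114). Without sh-TAF15 replicate 3 SMAD2, SMAD7, FBN1, ITGB5, ID1 and ID3 still passed, at 1.41, 0.82, 1.07, -1.13, -0.97 and -1.39 (limma adjusted p 0.000504 to 0.0318), and SMAD3 was at 0.51 (0.162).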
